A study of Mus musculus with 8 samples.

Results

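The genes described here are 9 UPF and SMG genes, *Upf1*, *Upf2*, *Upf3a*, *Upf3b*, *Smg1*, *Smg5*, *Smg6*, *Smg8* and *Smg9*, which encode factors of nonsense-mediated mRNA decay (NMD). They were listed by symbol under a rule that uses no measured value, although the list was drawn up with earlier results of these data known. The symbols were mapped to the Entrez identifiers of the count table, where all 9 were found among 27179 genes. All 9 passed the expression filter and are among the 17700 genes tested.

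NMD removes mRNAs on which a ribosome stops upstream of an exon junction complex or a long 3′ end. UPF1 is the RNA helicase at its core. UPF2 and the UPF3 proteins link UPF1 to the exon junction complex, the SMG1 kinase held by SMG8 and SMG9 phosphorylates UPF1, and phosphorylated UPF1 recruits SMG5 and the endonuclease SMG6. In several mammalian cell types the mRNAs of NMD factors are themselves NMD targets and accumulate when the pathway is impaired. The comparisons below give the levels of these mRNAs in developing B cells. Whether such a response produced any difference was not tested, since counts per gene do not separate decay from transcription.

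RNA was sequenced after removal of ribosomal RNA from early LPre-B cells, large cycling pre-B cells, and sPre-B cells, the small pre-B cells that follow them, sorted from mouse bone marrow. Mice labelled cKO carried *Upf1* Flox/Flox, *Mb1* Cre/+ and *Igh* B1-8hi/+, and mice labelled Ctrl carried *Upf1* Flox/Flox, *Mb1* +/+ and *Igh* B1-8hi/+. Each of the 4 groups had 2 libraries. All groups therefore shared the floxed *Upf1* alleles and the pre-rearranged heavy chain gene B1-8hi, whereas the Cre was present in the cKO groups alone. The Cre is driven from *Mb1* (*Cd79a*), so it acts in the B lineage and interrupts 1 *Cd79a* allele, and the presence of Cre, the altered *Cd79a* locus and the deletion of *Upf1* cannot be told apart in these groups.

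The libraries held between 68516857 and 160426338 counts, and the 9 genes had between 1201 counts (*Upf3a*, replicate 1 of cKO sPre-B cells) and 117553 counts (*Smg1*, replicate 2 of cKO early LPre-B cells), so counting error was small for all of them. Levels are given as CPM, counts relative to the library total after scaling with edgeR's TMM factors. The sort gated on CD25 and CD2, and the summed level of their genes *Il2ra* and *Cd2* was between 42.0 and 59.3 CPM in Ctrl and between 23.5 and 31.97 CPM in cKO early LPre-B cells, and between 631 and 667 CPM in sPre-B cells. *Cd79a*, the locus of the Cre, was lower in cKO cells by a Log2FC of -1.77 in early LPre-B and -2.08 in sPre-B cells (edgeR adjusted p = 0.000157 and 7.05e-05). Replicate 2 of Ctrl cells stood apart at both stages, with at least 19733 counts of Y-linked genes against at most 34 in the other libraries. Its *Xist* counts were 304 in early LPre-B and 151 in sPre-B cells, against at least 290740 in the other libraries. No cKO library had this pattern, so it cannot be fully told apart from genotype. Results are also given without replicate 2 of Ctrl cells, in fits where each Ctrl group has 1 library, whose spread is assumed to be that of the cKO groups.

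Per the study's methods exons 4 to 6 of *Upf1* are floxed. They make up 511 of 4618 transcript bases (11.1%) in the GENCODE annotation, and both annotated *Upf1* transcripts contain them. They are coding exons on the minus strand of chromosome 8 (mm10), at chr8:70342010-70342177 (exon 4), chr8:70341460-70341640 (exon 5) and chr8:70340550-70340711 (exon 6). The sequences are shown because they are the bases whose loss defines the cKO allele, and they are printed 5′ to 3′ on the strand of the transcript.
exon 4: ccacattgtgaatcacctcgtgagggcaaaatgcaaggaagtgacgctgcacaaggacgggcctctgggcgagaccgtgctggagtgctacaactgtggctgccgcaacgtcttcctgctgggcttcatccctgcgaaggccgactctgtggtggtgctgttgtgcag
exon 5: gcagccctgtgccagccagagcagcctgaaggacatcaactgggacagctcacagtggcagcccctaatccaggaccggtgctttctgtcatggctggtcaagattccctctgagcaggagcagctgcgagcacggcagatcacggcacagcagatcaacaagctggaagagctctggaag
exon 6: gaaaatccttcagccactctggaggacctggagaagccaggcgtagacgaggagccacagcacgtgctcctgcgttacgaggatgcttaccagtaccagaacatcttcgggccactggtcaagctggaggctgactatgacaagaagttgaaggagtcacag
Exons 4 and 6 have lengths divisible by 3, with 168 and 162 bases, and exon 5 does not, with 181 bases. A transcript in which exon 3 is joined to exon 7 is therefore read in another frame from exon 7 on. The last 20 bases of exon 3 and the bases of exon 7 up to the first stop codon of that frame, which is in capitals, are as follows.
exon 3 to exon 7: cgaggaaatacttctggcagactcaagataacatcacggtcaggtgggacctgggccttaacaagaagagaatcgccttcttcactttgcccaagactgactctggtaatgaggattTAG
This reading frame holds 181 codons before its stop, compared with 1124 in the annotated frame. The stop lies in exon 7 of 24, and 17 exon junctions follow it. Because the count of *Upf1* covers its undeleted exons, it measures RNA from both the intact and the recombined allele, and it cannot serve as a check of the genotype. Reads across the new junction were not analysed here. Per the study, an immunoblot showed no UPF1 protein in sPre-B cells of cKO mice with the pre-rearranged heavy chain gene.

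**Figure D1:**
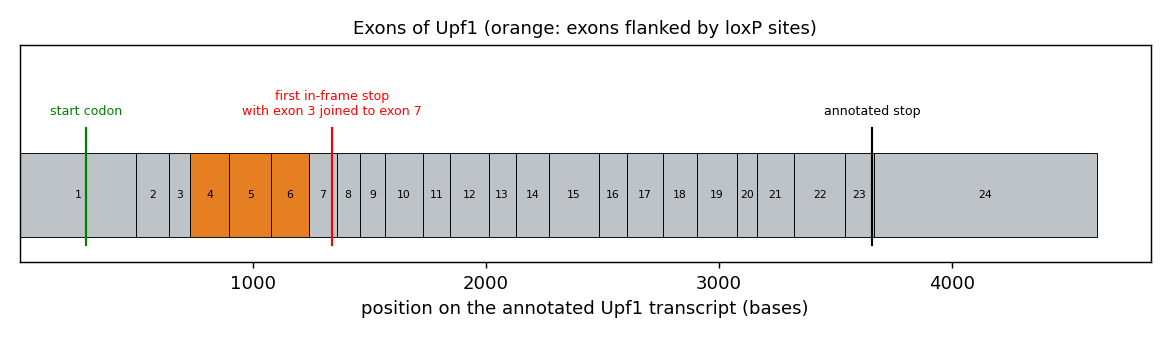
Exons of the annotated *Upf1* transcript drawn to scale in bases along the transcript, with the 3 floxed exons in orange and vertical lines at the start codon, the annotated stop and the stop reached when exon 3 is joined to exon 7. The new stop falls in exon 7 at base 1340 of the annotated transcript, and the annotated coding sequence ends at base 3660.

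In early LPre-B cells 6 of the 9 genes were higher in cKO than in Ctrl cells and none was lower, at an adjusted p under 0.05. Of all genes tested, 14.5% were higher and 16.9% were lower in this comparison, 31.3% in either direction. The median Log2FC (log2 of cKO over Ctrl) of the 9 genes was 0.54, and that of all genes tested was -0.06. The differences were tested with edgeR's quasi-likelihood F test over the 8 libraries, with Benjamini-Hochberg adjustment over all genes. The p values measure the spread between these libraries, since the labels do not state from which animals they came, and in bulk RNA fewer cells of a type and less RNA per cell cannot be told apart.

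*Smg9*, which encodes a regulatory subunit of the SMG1 kinase complex, had the highest Log2FC of the 9. Its level was 31.0 and 29.3 CPM in the Ctrl libraries and 67.7 and 63.4 CPM in the cKO libraries. The cKO libraries did not overlap with the Ctrl libraries, and the mean rose 2.18-fold, with a Log2FC of 1.12 ± 0.10 (SE, edgeR adjusted p = 0.000125). *Smg5*, which encodes an adaptor that binds phosphorylated UPF1, had 136 and 129 CPM in Ctrl and 267 and 288 CPM in cKO. It rose 2.09-fold (Log2FC 1.06 ± 0.10, edgeR adjusted p = 0.000179), again without overlap. Leaving out any of the 8 libraries kept the call of both genes, with adjusted p at most 0.00189 for *Smg9* and 0.00212 for *Smg5*.

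*Smg1*, the kinase that phosphorylates UPF1, had 479 and 539.7 CPM in Ctrl and 795 and 905 CPM in cKO early LPre-B cells. It rose 1.67-fold (Log2FC 0.74 ± 0.14, edgeR adjusted p = 0.00423). The endonuclease gene *Smg6* had 172 and 193 CPM in Ctrl and 247 and 259 CPM in cKO cells. Every cKO library was above every Ctrl library for both genes, and *Smg6* rose 1.39-fold (Log2FC 0.47 ± 0.10, edgeR adjusted p = 0.00955). Without replicate 2 of cKO early LPre-B cells the call of *Smg6* was lost (adjusted p = 0.0563). *Smg8* encodes the subunit that joins SMG9 on the kinase. It had 33.6 and 29.3 CPM in Ctrl and 26.8 and 26.2 CPM in cKO cells, with a Log2FC of -0.25 ± 0.11 (edgeR adjusted p = 0.132) and a 95% interval from -0.51 to 0.01.

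Among the UPF genes, *Upf2* had 77.4 and 88.0 CPM in Ctrl and 119.9 and 127 CPM in cKO early LPre-B cells. It rose 1.49-fold (Log2FC 0.58 ± 0.09, edgeR adjusted p = 0.00198). The paralogs *Upf3b* and *Upf3a* took opposite signs. *Upf3b*, the X-linked UPF3 gene, had 35.3 and 41.2 CPM in Ctrl and 54.7 and 56.2 CPM in cKO cells, and rose 1.45-fold (Log2FC 0.54 ± 0.13, edgeR adjusted p = 0.0136). *Upf3a*, whose protein is the weaker activator of NMD, had 21.2 and 19.1 CPM in Ctrl and 15.7 and 16.8 CPM in cKO cells. The libraries of *Upf3a* did not overlap, but its Log2FC of -0.31 ± 0.14 did not pass the test (edgeR adjusted p = 0.116).

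The call of *Upf3b* in early LPre-B cells depended on the libraries used. Its adjusted p became 0.0643 without replicate 1 of Ctrl, 0.0565 without replicate 1 of cKO and 0.0632 without replicate 2 of cKO early LPre-B cells. Without the libraries with Y-linked counts its Log2FC was 0.70 (edgeR adjusted p = 0.00738). *Upf1* itself had 237 and 213 CPM in Ctrl and 244 and 258 CPM in cKO early LPre-B cells, and its Log2FC of 0.16 had a 95% interval from -0.06 to 0.38. Library size in place of TMM gave 0.33 for *Upf1* (edgeR adjusted p = 0.0203), a scaling that raised the median of all genes by 0.17 and the share of higher genes among the calls from 46.2% to 69.1%. Without the libraries with Y-linked counts the comparison again had 6 of the 9 genes higher and 0 lower.

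**Figure D2:**
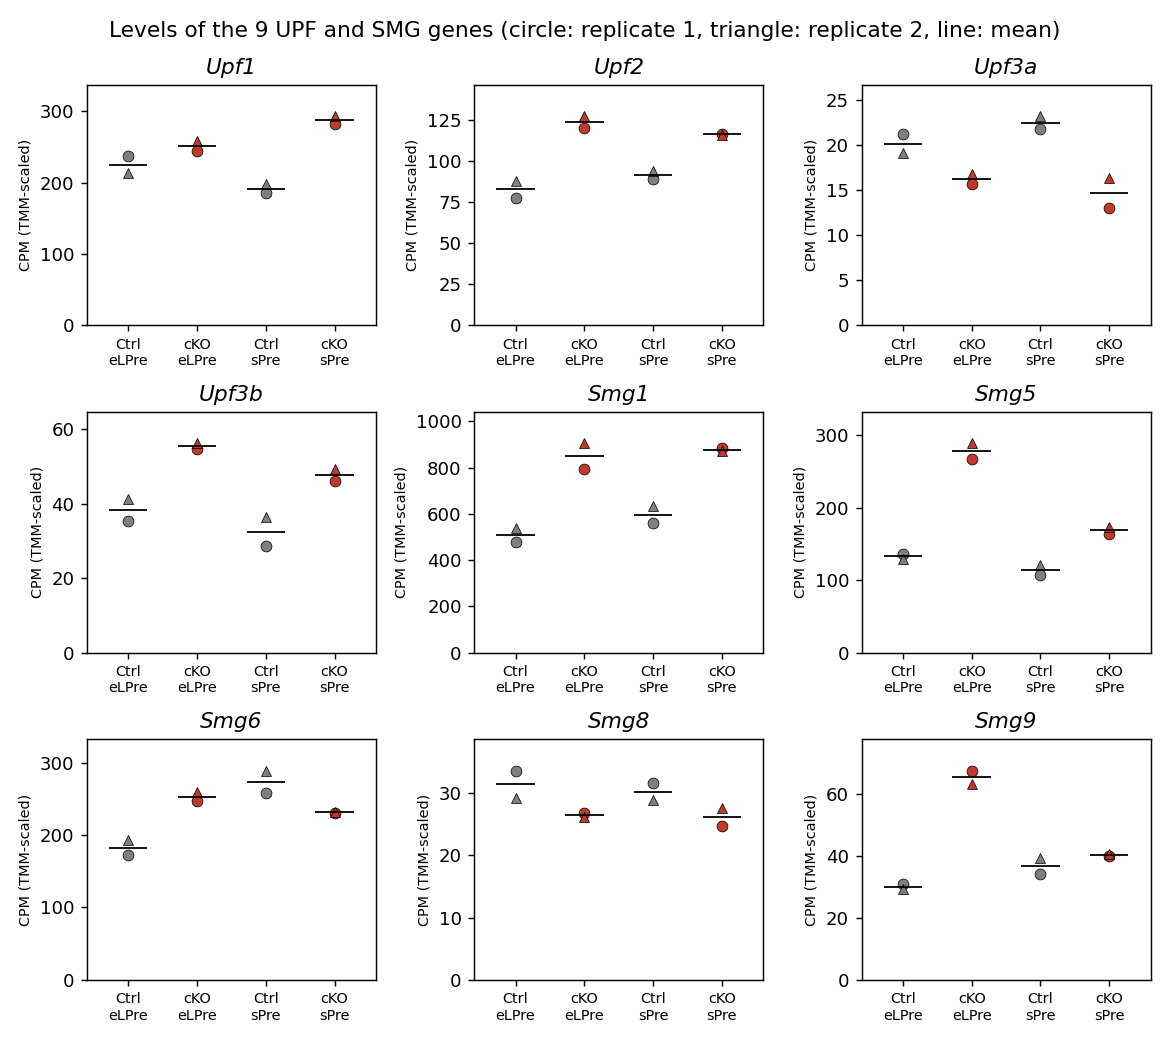
Levels of the 9 genes in each library, in TMM-scaled CPM on axes that start at 0, with grey for Ctrl, red for cKO, circles for replicate 1, triangles for replicate 2 and lines for the mean of 2 libraries. *Smg5* and *Smg9* are highest in the cKO early LPre-B libraries, *Upf1* is highest in the cKO sPre-B libraries, and for *Upf3a* and *Smg8* each cKO point lies below the Ctrl points of its stage.

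In sPre-B cells 5 of the 9 genes were higher in cKO than in Ctrl cells and 1 was lower, beside 19.8% higher, 14.9% lower and 34.7% in either direction among all genes tested. The median Log2FC of the 9 genes was 0.35, and that of all genes was 0.01. *Upf1*, *Upf2*, *Upf3b*, *Smg1* and *Smg5* rose and *Upf3a* fell, and none of the other 3 genes, all of the SMG group, passed the test.

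*Upf1* had 186 and 198 CPM in Ctrl and 282 and 293 CPM in cKO sPre-B cells. Its RNA rose 1.5-fold (Log2FC 0.59 ± 0.10, edgeR adjusted p = 0.00245), and the call held without any of the libraries, with adjusted p at most 0.0197. *Smg5* had 106 and 121 CPM in Ctrl and 164 and 173 CPM in cKO cells. It rose 1.48-fold (Log2FC 0.57 ± 0.10, edgeR adjusted p = 0.00313) and also kept its call without any of the libraries, with adjusted p at most 0.0264.

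*Smg1* had 560.2 and 633 CPM in Ctrl and 885 and 872 CPM in cKO sPre-B cells, and rose 1.47-fold (Log2FC 0.56 ± 0.13, edgeR adjusted p = 0.0129). *Upf3b* had 28.7 and 36.3 CPM in Ctrl and 46.2 and 49.4 CPM in cKO cells, and also rose 1.47-fold (Log2FC 0.56 ± 0.13, edgeR adjusted p = 0.0104). Its level without the libraries with Y-linked counts differed by a Log2FC of 0.70 (edgeR adjusted p = 0.00671). *Upf2* had 89.0 and 93.7 CPM in Ctrl and 116.4 and 115.9 CPM in cKO cells, and rose 1.27-fold (Log2FC 0.35 ± 0.09, edgeR adjusted p = 0.0171). In these 3 genes too the cKO libraries lay above the Ctrl libraries.

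*Upf3a* had 21.8 and 23.2 CPM in Ctrl and 13.0 and 16.3 CPM in cKO sPre-B cells. It was the only one of the 9 genes called lower, at 0.653 of the Ctrl mean (Log2FC -0.61 ± 0.14, edgeR adjusted p = 0.0095). Its lowest library was replicate 1 of cKO, and without it the Log2FC was -0.46 (edgeR adjusted p = 0.0726). The same libraries gave opposite signs for the paralogs *Upf3a* and *Upf3b*.

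*Smg9* had 34.3 and 39.4 CPM in Ctrl and 40.0 and 40.7 CPM in cKO sPre-B cells, so that the upper Ctrl library came close to the cKO libraries (Log2FC 0.13, edgeR adjusted p = 0.323). *Smg6* had 258 and 289 CPM in Ctrl and 231 and 232 CPM in cKO cells, the opposite order to early LPre-B cells, but its Log2FC of -0.24 did not pass the test (edgeR adjusted p = 0.103). *Smg8* had 31.7 and 28.9 CPM in Ctrl and 24.8 and 27.6 CPM in cKO cells (Log2FC -0.21, edgeR adjusted p = 0.19). The cKO libraries of *Smg6* and *Smg8* lay below the Ctrl libraries without overlap, at 0.846 and 0.865 of the Ctrl mean.

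Several of the sPre-B calls depended on the libraries used. *Smg1* lost its call without replicate 1 of Ctrl (adjusted p = 0.0786) and without replicate 1 or 2 of cKO sPre-B cells (adjusted p = 0.0671 and 0.0511). *Upf3b* lost it without replicate 1 of Ctrl or replicate 2 of cKO (adjusted p = 0.0882 and 0.0549). *Upf2* lost it without any of the 4 sPre-B libraries, with adjusted p between 0.0636 and 0.124. Across the fits that left out 1 library, between 2 and 5 of the 9 genes were higher and between 0 and 2 were lower, while the signs of all 6 called genes were unchanged. Without the libraries with Y-linked counts 5 were higher and 1 was lower.

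**Figure D3:**
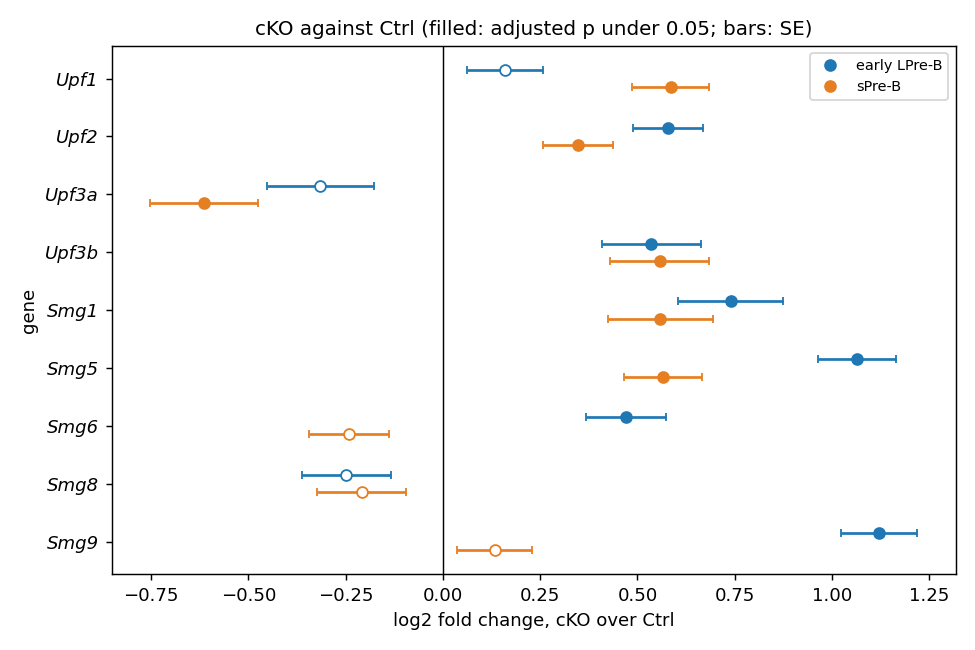
Log2FC of cKO over Ctrl for the 9 genes in early LPre-B cells (blue) and sPre-B cells (orange), with bars for the SE and filled points for an adjusted p under 0.05. *Smg9* lies at 1.12 in early LPre-B cells and 0.13 in sPre-B cells, and *Smg6* lies at 0.47 and -0.24.

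The difference between the cKO effects of the 2 stages was tested as the interaction of stage and genotype. It passed for 2 of the 9 genes, both with a lower effect in sPre-B cells, beside 1.6% lower, 2.64% higher and 4.24% in either direction among all genes tested. The effect on *Smg9* was lower in sPre-B cells by 0.99 ± 0.14 on the log2 scale, with a difference of -0.99 (edgeR adjusted p = 0.011). The effect on *Smg6* differed by -0.71 ± 0.15 (edgeR adjusted p = 0.0346). *Smg5* had a difference of -0.50 ± 0.14 that did not pass (edgeR adjusted p = 0.0872), although it passed with DESeq2 (adjusted p = 0.0171), with library size alone (adjusted p = 0.0425), with a block for the replicate number within each genotype (adjusted p = 0.0368) and without replicate 1 of Ctrl sPre-B cells (adjusted p = 0.0349).

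*Upf1* went the other way, with a larger effect in sPre-B cells by 0.43 ± 0.14, and did not pass (edgeR adjusted p = 0.127). For *Upf3b* the difference was 0.02, with a 95% interval from -0.39 to 0.43, and for *Smg8* it was 0.04, with an interval from -0.33 to 0.41. The calls of *Smg9* and *Smg6* depended on the libraries used. Without replicate 1 of cKO early LPre-B cells the adjusted p of *Smg9* was 0.0572. *Smg6* lost its call in 6 of the 8 fits that left out a library, all but those without replicate 2 of Ctrl early LPre-B cells or replicate 1 of Ctrl sPre-B cells, with adjusted p between 0.061 and 0.109. Without both libraries with Y-linked counts neither passed (*Smg9* -0.94, adjusted p = 0.0737, and *Smg6* -0.80, adjusted p = 0.0788), and 0 of the 9 genes were called.

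Between the stages most of the 9 genes did not pass the test. In Ctrl cells 2 of the 9 were higher in sPre-B than in early LPre-B cells and 0 were lower, beside 29.1% higher, 31.1% lower and 60.2% in either direction among all genes tested. *Smg6* rose 1.5-fold from 183 ± 14.4 to 273 ± 22.2 CPM (SD, n = 2, Log2FC 0.58 ± 0.10, edgeR adjusted p = 0.00124). *Smg9* rose 1.22-fold (Log2FC 0.29 ± 0.10, edgeR adjusted p = 0.0294), a call that was lost without the libraries with Y-linked counts (Log2FC 0.22, adjusted p = 0.184) and without replicate 2 of Ctrl sPre-B cells (adjusted p = 0.109), replicate 2 of Ctrl early LPre-B cells (adjusted p = 0.0578), replicate 1 of cKO early LPre-B cells (adjusted p = 0.0505) or replicate 1 of cKO sPre-B cells (adjusted p = 0.0508). The remaining 7 genes had a Log2FC between -0.24 (*Upf3b*) and 0.23 (*Smg1*). Scaling by library size alone, which raised the median of all genes by 0.20 and the share of higher genes among the calls from 48.4% to 59.0%, called 5 of the 9 genes higher. A block for the replicate number within each genotype called *Upf1* (Log2FC -0.23, edgeR adjusted p = 0.0369), *Upf3b* (-0.24, adjusted p = 0.0217) and *Smg5* (-0.22, adjusted p = 0.0444) lower and also *Smg1* higher (0.23, adjusted p = 0.0453).

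In cKO cells 2 of the 9 were lower in sPre-B than in early LPre-B cells and 0 were higher, beside 31.1% lower, 31.6% higher and 62.6% in either direction among all genes tested. *Smg5* fell from 278 ± 15 to 169 ± 6.41 CPM (SD, n = 2, Log2FC -0.72 ± 0.10, edgeR adjusted p = 0.000288). *Smg9* fell from 65.5 ± 3.03 to 40.4 ± 0.449 CPM (SD, n = 2, Log2FC -0.70 ± 0.10, edgeR adjusted p = 0.000281). Both calls held in every fit that left out 1 library. *Upf3b* (Log2FC -0.21, edgeR adjusted p = 0.171) also passed, as lower, without the libraries with Y-linked counts (-0.23, adjusted p = 0.0436), with only the 4 libraries compared (-0.25, adjusted p = 0.023) and with the block within each genotype (-0.21, adjusted p = 0.032). The other 7 genes had a Log2FC between -0.21 (*Upf3b*) and 0.19 (*Upf1*). These stage comparisons share their libraries with the comparisons of genotype and are not independent of them.

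**Figure D4:**
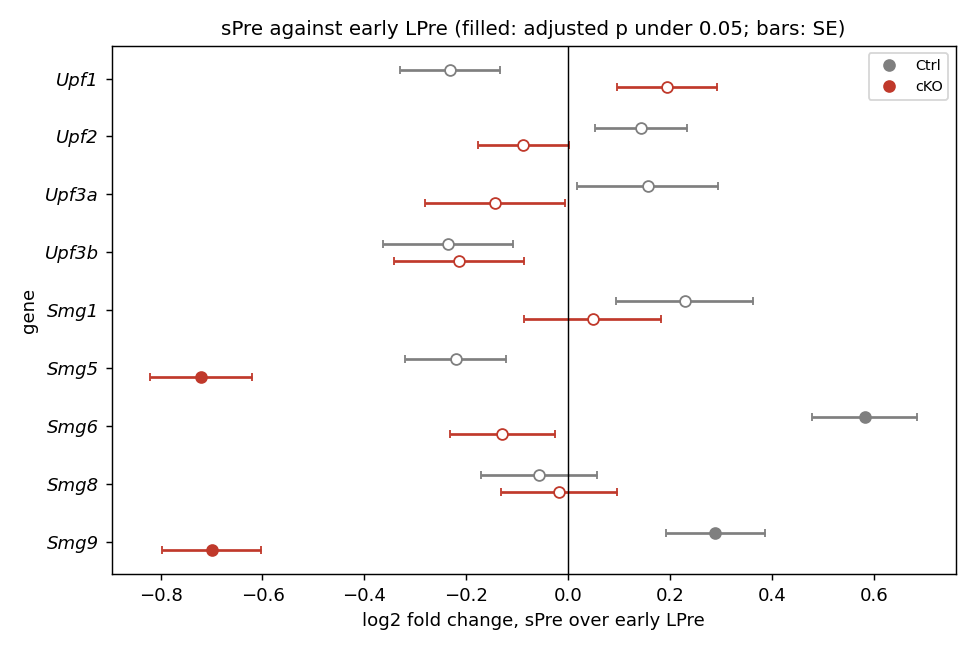
Log2FC of sPre-B over early LPre-B cells for the 9 genes in Ctrl (grey) and cKO (red) cells, with bars for the SE and filled points for an adjusted p under 0.05. *Smg6* is at 0.58 in Ctrl, and *Smg5* and *Smg9* are at -0.72 and -0.70 in cKO.

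Cycling differed between the stages, and 10 of 10 proliferation genes were lower in sPre-B than in early LPre-B cells in both genotypes, with a median Log2FC of -3.15 in Ctrl and -2.17 in cKO against 0.02 and 0.05 for all genes tested, of which 31.1% were lower in each genotype. Between the genotypes 1 of these 10 genes was lower in cKO early LPre-B cells (*Pcna*, Log2FC -0.48, edgeR adjusted p = 0.0371) and 2 were higher in cKO sPre-B cells (*Aurkb* 0.69, adjusted p = 0.0109, and *Plk1* 0.74, adjusted p = 0.0273). Of all genes 16.9% were lower in the first of these comparisons and 19.8% higher in the second. The first count was 0 with library size alone, 2 with the likelihood-ratio test, 6 with DESeq2, 6 with no expression filter and 7 with only the 4 libraries compared. The second was 1 with only the 4 libraries compared. With 1 library left out the first ranged from 0 to 8 and the second from 0 to 7. The Log2FC was negative for 10 of the 10 genes in early LPre-B cells (median -0.50, against -0.06 for all genes) and positive for 8 in sPre-B cells (median 0.47, against 0.01), and the difference between the stages was positive for 10 (median 0.996, against 0.07), of which 0 passed, although 3 did with the likelihood-ratio test, 7 with DESeq2 and up to 8 with 1 library left out. Markers of other cell types also moved with genotype. The summed level of 6 myeloid markers, of which none was at 0, was between 109 and 132 CPM in Ctrl and between 48.0 and 53.9 CPM in cKO early LPre-B cells. In sPre-B cells it was between 299.6 and 351 CPM in Ctrl and between 207 and 238 CPM in cKO. *Itgam*, which encodes CD11b, made up most of this sum. Its means were 92.2 and 35.8 CPM in Ctrl and cKO early LPre-B cells and 245 and 178 CPM in sPre-B cells. In early LPre-B cells the Ctrl and cKO means were 14.9 and 5.68 CPM for *Lyz2*, 4.65 and 2.90 for *S100a8*, and 7.07 and 4.91 for *S100a9*. They were 1.36 and 1.30 CPM for *Mpo*. *Elane* had means of 0.248 and 0.387 CPM there, with Ctrl libraries at 0.0217 and 0.474 CPM, and 1.06 and 0.226 CPM in sPre-B cells. CD11b was among the lineage antigens by which the sort left cells out, per the study's methods. The 3 early LPre-B markers *Kit*, *Dntt* and *Spn* summed to between 439 and 489 CPM in Ctrl and between 151 and 164 CPM in cKO early LPre-B cells, and the 10 B-lineage markers to between 3579.5 and 3719 CPM and between 2365 and 2482 CPM. In sPre-B cells the B-lineage markers summed to between 9151 and 9392 CPM in Ctrl and between 6156 and 6165 CPM in cKO. The 5 erythroid markers summed to between 10.6 and 11.3 CPM in Ctrl and between 2.89 and 6.95 CPM in cKO early LPre-B cells, and to between 18.4 and 21.3 and between 6.71 and 11.1 CPM in sPre-B cells. The 3 plasma cell markers summed to between 74.1 and 89.3 CPM in Ctrl and between 41.5 and 47.3 CPM in cKO early LPre-B cells, and to between 69.8 and 109 and between 35.6 and 59.1 CPM in sPre-B cells. *Sdc1* made up most of this sum, with means of 79.4 and 43.2 CPM in early LPre-B cells, where *Prdm1* had 1.13 and 1.05 CPM. The 3 NK cell markers summed to between 3.68 and 3.78 CPM in Ctrl and between 1.14 and 2.25 CPM in cKO early LPre-B cells, and were at or under 0.638 CPM in sPre-B cells. *Klrb1c* had means of 3.14 and 0.644 CPM in Ctrl and cKO early LPre-B cells, and *Nkg7* 0.558 and 1.04 CPM. The 4 T cell markers stayed at or under 1.5 CPM in all libraries. The part of these markers in the levels of the 9 genes was not tested.

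Levels were compared between genes per kilobase of the exon union, the merged exons of all annotated transcripts of a gene. *Upf1* was the highest of the 9 in every group, with 48.7 ± 3.62 CPM per kilobase in Ctrl early LPre-B cells (SD, n = 2), and *Upf3a* was the lowest in every group, with 3.44 ± 0.247 CPM per kilobase there. In Ctrl early LPre-B cells *Smg6* (21.6 ± 1.71), *Smg1* (21.2 ± 1.80), *Smg5* (19.1 ± 0.738), *Upf2* (15.1 ± 1.37), *Smg8* (9.78 ± 0.953), *Upf3b* (9.57 ± 1.03) and *Smg9* (8.14 ± 0.321 CPM per kilobase) followed in this order, where *Smg6* overlapped with *Smg1* and *Smg8* with *Upf3b*. In cKO early LPre-B cells *Smg5* (39.9 ± 2.15 CPM per kilobase) stood second and *Smg9* (17.7 ± 0.819) sixth, and no neighbours overlapped.

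In Ctrl sPre-B cells *Smg6* was second with 32.3 ± 2.63 CPM per kilobase, and the ranges of *Upf2* and *Smg5* overlapped, as did those of *Smg9*, *Smg8* and *Upf3b* along the order. In cKO sPre-B cells *Smg1* was second with 36.6 ± 0.365 CPM per kilobase and no neighbours overlapped. The order depended on the length used, which for *Smg5* was 6.96 kilobases by exon union and 4.45 by principal transcript, and for *Smg6* 8.45 and 5.85. Per kilobase of the principal transcript the rank changed in 19 of 36 combinations of gene and group, *Smg5* was highest in cKO early LPre-B cells (62.4 ± 3.37 CPM per kilobase) and *Smg6* in Ctrl sPre-B cells (46.8 ± 3.80). *Smg8*, not *Upf3a*, was then the lowest in Ctrl cells of both stages, although it overlapped with *Upf3a* in early LPre-B cells (9.78 ± 0.953 and 9.81 ± 0.703).

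The 9 genes lie at separate places in the genome, on chromosomes 2, 3, 7, 8, 11 and X of mm10. *Smg9* spans chr7:24399619-24422778, *Smg5* chr3:88336260-88362338, *Smg6* chr11:74925823-75164448 and *Upf3a* chr8:13785615-13799193, all on the plus strand. The counting did not use strand, so reads from genes on the opposite strand cannot be told apart where exons overlap. *Upf1* shares 68 bases (1.47% of its exon union) with *Cers1* and 63 bases (1.36%) with *Gdf1*, and *Smg6* shares 126 bases (1.49%) with *Srr* and 117 bases (1.38%) with *Gm12333*. The other 7 genes share 0 exon bases with another annotated gene.

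Features of the transcripts that are known in NMD targets were read from the GENCODE annotation (M21). The annotated 3′ untranslated region was longer than the median of 20367 coding genes, 705 bases, in 7 of the 9 genes, and lengths ranged from 221 bases in *Smg8* to 4233 bases in *Smg1*. *Smg8* and *Smg9* (400 bases), below that median, are the exceptions. A transcript annotated as an NMD substrate was listed for *Smg1*, *Smg5* and *Smg6*, 3 of the 9 genes, and for 21.5% of all genes. At least 1 ATG before the start codon was present in *Upf2*, *Smg1*, *Smg5* and *Smg9*, 4 of the 9 genes, and in 47.5% of all. An exon junction over 50 bases after the stop codon was present in 0 of the 9 principal transcripts and in 0.329% of all. These are descriptions of the annotation, and which transcript of a gene was present was not measured by counts per gene.

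Promoters of 300 bases (RefSeq, GRCm38.p6, from 250 bases before to 50 after the annotated start) were searched on both strands for 8 motifs. The GC box GGGCGG was present in 7 of the 9 promoters and in 46.0% of all 18458, and the CCAAT box in 4 and 39.1%. The core TGCGCA of the NRF1 site was found in *Upf1*, *Smg6* and *Smg9* and in 9.98% of all, and the ETS core CCGGAAG in *Smg8* and in 11.7%. The CARE element, bound by ATF4 (TGATGNAAN), the CRE (TGACGTCA), the E-box CACGTG and the E2F site TTTCCCGC were found in 0 of the 9 promoters and in 3.59%, 2.36%, 8.02% and 1.44% of all.

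Other genes of the pathway were described by lists. Among 15 NMD cofactors, which include the release factors, the exon junction complex core and partners of SMG1, 3 were higher and 4 lower in cKO early LPre-B cells, with a median Log2FC of -0.18, and 2 were higher and 1 lower in cKO sPre-B cells, with a median of 0.04, against -0.06 and 0.01 for all genes tested. Among all genes 14.5% were higher and 16.9% lower at the first stage and 19.8% and 14.9% at the second. *Dhx34*, an RNA helicase that promotes UPF1 phosphorylation, had between 41.3 and 43.5 CPM in Ctrl and between 57.9 and 58.8 CPM in cKO early LPre-B cells. It rose at both stages (Log2FC 0.46 ± 0.08, edgeR adjusted p = 0.0027, and 0.48 ± 0.08, adjusted p = 0.00192). *Nbas*, which acts in NMD at the endoplasmic reticulum, also rose at both stages (Log2FC 0.51 ± 0.09, edgeR adjusted p = 0.00408, and 0.88 ± 0.09, adjusted p = 0.00025). *Pnrc2*, which links UPF1 to decapping, had 121 and 127 CPM in Ctrl and 83.6 and 86.2 CPM in cKO early LPre-B cells and fell (Log2FC -0.55 ± 0.09, edgeR adjusted p = 0.00212).

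The number of cofactors lower in early LPre-B cells was 1 with library size alone, 2 with only the 4 libraries compared and between 1 and 3 with 1 library left out. Between the stages these 15 genes were mostly lower in sPre-B cells, 12 lower and 2 higher in Ctrl and 10 lower and 2 higher in cKO, with medians of -1.09 and -0.96 against 0.02 and 0.05 for all genes tested, of which 31.1% were lower in each genotype and 29.1% and 31.6% higher. *Eif4a3*, the helicase of the exon junction complex, fell by 1.24 on the log2 scale in Ctrl cells (edgeR adjusted p = 1.2e-05), and the release factor gene *Gspt1* fell by 1.26 (edgeR adjusted p = 2.19e-05). The 9 UPF and SMG genes had medians of 0.14 in Ctrl and -0.13 in cKO cells in the same comparisons.

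Of 14 genes for decapping, deadenylation and 5′ to 3′ decay, 2 were higher and 4 lower in cKO early LPre-B cells (median Log2FC -0.03), and 1 was higher and 1 lower in cKO sPre-B cells (median 0.07), beside the same medians of -0.06 and 0.01 for all genes and calls of 14.5% higher and 16.9% lower, and 19.8% and 14.9%, among all genes. With library size alone the early LPre-B counts became 4 higher and 1 lower, and with 1 library left out they ranged from 0 to 2 higher and 0 to 4 lower. In sPre-B cells 3 were lower with RLE factors. *Cnot8*, a deadenylase gene, fell at both stages (Log2FC -0.45, edgeR adjusted p = 0.00576, and -0.46, adjusted p = 0.00447). The decapping enzyme gene *Dcp2* fell in early LPre-B cells (Log2FC -0.55, edgeR adjusted p = 0.00871). Between the stages 4 were higher and 1 lower in Ctrl and 6 higher and 0 lower in cKO, with medians of 0.10 and 0.22 against 0.02 and 0.05 for all genes tested, of which 29.1% and 31.6% were higher and 31.1% lower in each genotype. These became 9 higher and 0 lower in Ctrl with library size alone and 7 and 0 with upper-quartile factors, and with 1 library left out 2 to 6 were higher in cKO. Of 4 genes that act with UPF1 in other decay pathways, 2 were lower in early LPre-B and 1 in sPre-B cells, with medians of -0.45 and -0.21 beside -0.06 and 0.01 for all genes, of which 16.9% and 14.9% were lower. Each count was between 1 and 2 with 1 library left out, and that of sPre-B cells was 2 without the libraries with Y-linked counts. Of these, *Stau2*, which encodes a double-stranded RNA binding protein of Staufen-mediated decay, fell at both stages (Log2FC -1.14 ± 0.15, edgeR adjusted p = 0.000911, and -1.10 ± 0.15, adjusted p = 0.00102). *Slbp*, which encodes the histone stem-loop binding protein, fell in early LPre-B cells (Log2FC -0.59, edgeR adjusted p = 0.00734) and had a Log2FC of -0.29 in sPre-B cells (adjusted p = 0.097).

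A list of 12 widely known NMD targets was set beside the 9 genes. Counts per gene do not separate slower decay from more transcription, and which of these changed the targets was not tested. The list includes *Gas5*, *Gadd45b* and *Ddit3*, which the study names, so it is not independent evidence of its direction. In early LPre-B cells 10 were higher and 1, *Gadd45a*, was lower in cKO cells (Log2FC -0.63, edgeR adjusted p = 0.00426), with a median Log2FC of 1.63. In sPre-B cells 9 were higher and 0 lower, with a median of 1.47. The medians of all genes tested were -0.06 and 0.01, and 14.5% were higher and 16.9% lower in early LPre-B and 19.8% and 14.9% in sPre-B cells. The count of lower genes in sPre-B cells was 2 with DESeq2 and with RLE factors and 1 with upper-quartile factors and with the replicate block, and *Gadd45b* had a Log2FC of -0.37 with DESeq2 (adjusted p = 0.0234) and of -0.33 with edgeR (adjusted p = 0.0529). The noncoding host gene *Snhg12* had 14.1 and 12.7 CPM in Ctrl and 389 and 386 CPM in cKO early LPre-B cells (Log2FC 4.85 ± 0.10, edgeR adjusted p = 1.74e-07). In sPre-B cells it had 7.94 and 7.94 CPM in Ctrl and 115 and 122 CPM in cKO (Log2FC 3.90 ± 0.10, edgeR adjusted p = 8.65e-07). The highest Log2FC among the 9 UPF and SMG genes, 1.12, was lower than the list's median in early LPre-B cells.

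The effects on *Snhg12*, *Snhg1* and *Gas5* were lower in sPre-B than in early LPre-B cells by the interaction test, with differences of -0.96 ± 0.12 (edgeR adjusted p = 0.00884), -0.91 ± 0.17 (adjusted p = 0.0291) and -0.81 ± 0.17 (adjusted p = 0.0342). With *Gadd45b* (-1.91 ± 0.16, adjusted p = 0.0027), 4 of the 12 targets were lower by this test, beside 1.6% of all genes lower and 2.64% higher. Another 4 had a positive difference, of which 0 passed, although 1 did with the likelihood-ratio test, with DESeq2 and with the block within each genotype. The call of *Snhg1* was lost in 6 of the 8 fits that left out 1 library, all but those without replicate 1 of cKO early LPre-B or of Ctrl sPre-B cells, and that of *Gas5* in 7, all but that without replicate 1 of Ctrl sPre-B cells, with adjusted p up to 0.0974 and 0.115, and all 3 calls were lost without the libraries with Y-linked counts (adjusted p = 0.126, 0.112 and 0.0646 for *Snhg1*, *Gas5* and *Snhg12*).

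**Figure D5:**
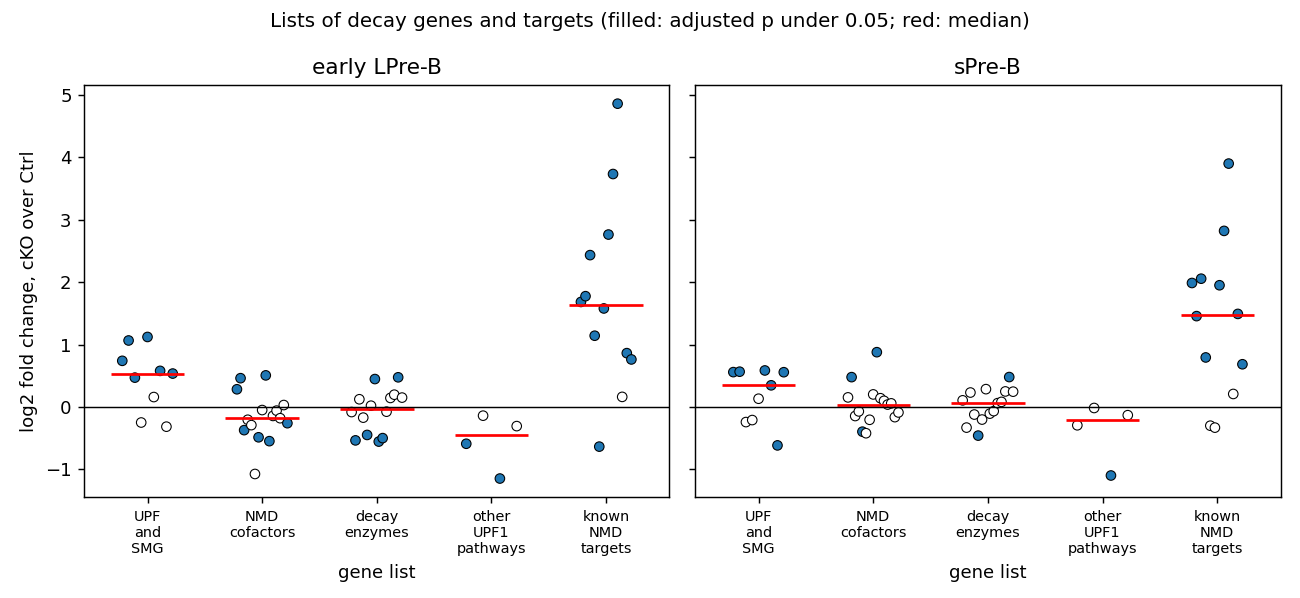
Log2FC of cKO over Ctrl in early LPre-B (left) and sPre-B cells (right) for the 9 UPF and SMG genes and 4 lists of other decay genes and targets, with 1 point per gene, filled for an adjusted p under 0.05, and red lines for the median of each list. The medians of the UPF and SMG genes, 0.54 and 0.35, lie between those of the known NMD targets, 1.63 and 1.47, and those of the cofactors, -0.18 and 0.04.

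The genes whose levels followed *Upf1* and *Smg5* most closely over the 8 libraries were found by Pearson's r of log2 CPM (prior count 2) among 9814 genes with a mean log2 CPM of at least 3. For *Upf1* they were *Npepps* (r = 0.973), *Snrnp35* (r = 0.970) and *Slco4a1* (r = 0.967). *Slco4a1*, which encodes an organic anion transporter, had between 63.0 and 64.1 CPM in Ctrl sPre-B cells and between 148 and 157 CPM in cKO sPre-B cells, the lowest and highest groups of *Upf1* as well. For *Smg5* they were *Mlst8* (r = 0.993), *Bricd5* (r = 0.992) and *Mbd4* (r = 0.991). *Mlst8*, which encodes a subunit of the mTOR complexes, had 65.3 and 68.9 CPM in cKO early LPre-B cells and between 30.0 and 43.6 CPM in the other libraries. *Mlst8* and *Bricd5* lie on opposite strands and share 997 exon bases, so their counts are not separate measurements. The 8 points are 4 groups of 2 libraries, so the correlation is a description of these libraries.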

How the data were processed

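The 8 libraries were prepared by the authors with a directional kit after depletion of ribosomal RNA and sequenced as paired ends. Reads were trimmed with Trim Galore, aligned to mm10 with HISAT2 without use of strand and counted per gene with featureCounts, and the authors deposited these counts without normalization, listed by Entrez identifier. Versions and the annotation release are not given in the sources used here. Unstranded counting leaves opposite-strand overlaps unresolved.

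The deposited counts entered edgeR 4.0.16 under R 4.3.3 (TMM, expression filter by group, 1 mean per group over all 8 libraries, quasi-likelihood F test, two-sided, Benjamini-Hochberg over 17700 genes, threshold 0.05). The fit was tested on simulated data. DESeq2 1.42.0, the likelihood-ratio test, other scalings, no filter, replicate blocks, fits of 4 libraries and fits without libraries were tried as alternatives. Each library was assigned to its group by its label. The floor of 3 counts per library was between 0.0217 and 0.0426 CPM, which covers counting error only. Symbols came from RefSeq for 25275 of 27179 identifiers. Lengths, exons and overlaps came from GENCODE M21, on the mm10 assembly, with *Upf1* exon sequences from its transcripts.

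The 9 genes and the lists were chosen with earlier results of these data known. All 9 genes were named, and of each list at most the 3 genes with the lowest adjusted p in a comparison, the 3 genes most correlated with *Upf1* and with *Smg5*, *Cd79a* and genes that overlap a member. Cell type markers were named from a separate list. *Itgam*, *Lyz2*, *S100a8*, *S100a9*, *Mpo*, *Elane*, *Sdc1*, *Prdm1*, *Klrb1c* and *Nkg7* were singled out after their values were seen. *Ddit3* is named only as a list member. *Gadd45a* is named although it falls outside this rule, since it was the only known NMD target that fell in early LPre-B cells. Other libraries of the study were not analysed here.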

Additional observations from a re-analysis of the deposited data

Results flagged for a closer look

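In 7 of the genes reported the cKO effect differed between the stages by the interaction test of edgeR (adjusted p under 0.05). *Smg6* had a difference, sPre-B minus early LPre-B, of -0.71 and *Smg9* of -0.99. Of the known NMD targets, *Gas5* had -0.81, *Gadd45b* -1.91, *Snhg1* -0.91 and *Snhg12* -0.96. *Gadd45b* had 16.1 and 14.1 CPM in Ctrl and 45.7 and 44.5 CPM in cKO early LPre-B cells, but 29.6 and 33.1 CPM in Ctrl and 26.3 and 23.6 CPM in cKO sPre-B cells. It is the only gene of the 7 whose difference passed under all 18 alternatives, with values from -2.08 to -1.83. *Pnrc2* was the only one with a higher effect in sPre-B cells, by 0.69, with 195 and 183 CPM in Ctrl and 203 and 214 CPM in cKO sPre-B cells, and its call was lost in 7 of the 8 fits that left out 1 library, all but that without replicate 1 of Ctrl sPre-B cells (adjusted p up to 0.101).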

How the results depend on the processing

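Of 828 fold changes of the 9 genes under alternatives, 754 kept their sign and their side of the threshold, 30 lost a call, 19 gained one and 25 changed sign, none of these 25 in a called value. The sign changed for *Smg8* between stages in Ctrl (0.046 with upper-quartile factors and 0.15 with library size alone) and in cKO cells (0.054 and 0.069), and for the interaction of *Upf3b* (-0.022 with DESeq2, -0.019 with RLE factors, -0.0034 with upper-quartile factors and -0.087 with library size alone) and of *Smg8* (-0.0042 with DESeq2, -0.0027 with RLE factors, -0.078 with library size alone and -0.019 without the libraries with Y-linked counts). With 1 library left out, which leaves 1 library in that group, assumed to vary like the others, the values that changed sign ranged from -0.0017 to 0.20 for *Smg9* in sPre-B cells, from -0.084 to 0.10 for *Smg8* between stages in Ctrl cells, from -0.32 to 0.0067 for *Upf3a*, -0.047 to 0.14 for *Smg1* and -0.10 to 0.055 for *Smg8* between stages in cKO cells, and from -0.22 to 0.12 for the interaction of *Upf3b* and -0.14 to 0.11 for that of *Smg8*. The causes were not tested.

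The number of the 9 genes called moved as follows. Between the stages in Ctrl cells, 2 were higher, against 5 with library size alone and 1 with no expression filter, 1 with only the 4 libraries compared and 1 without the libraries with Y-linked counts. Between the stages in cKO cells, 1 was higher with upper-quartile factors and 1 with library size alone, against 0, and 3 were lower with only the 4 libraries compared, with the block within each genotype and without the libraries with Y-linked counts, against 2. For the interaction 2 were lower, and 0 without the libraries with Y-linked counts. With 1 library left out, between 4 and 6 were higher in early LPre-B cells, 2 and 5 higher and 0 and 2 lower in sPre-B cells, 1 and 2 higher between stages in Ctrl cells, and 0 and 3 lower for the interaction.

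The number of all genes called lower in early LPre-B cells was 2983, and 1677 with library size alone. For the interaction 467 were higher and 283 lower. These became 1004 and 504 with the likelihood-ratio test, 1035 and 704 with DESeq2, 1078 and 497 with no expression filter, and 59 and 33 without the libraries with Y-linked counts. With library size alone 462 were lower and the share of higher calls fell from 62.3% to 40.8%. With 1 library left out the calls ranged, higher and lower, over 1634 to 2790 and 1289 to 2717 in early LPre-B cells, 2258 to 3381 and 1366 to 3256 in sPre-B cells, and 84 to 569 and 42 to 333 for the interaction.

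Same-numbered libraries were compared as deviations from their group means over 17700 genes, with correlations of 0.155 and 0.0858 between genotypes in early LPre-B and sPre-B cells and 0.395 and 0.254 between stages in Ctrl and cKO cells. The Ctrl libraries numbered 2 also share their Y-linked counts at both stages. With 2 pairs for each comparison and no statement of shared animals, the numbers were not taken as pairs. A replicate block for that number left 6 of the 9 genes higher in early LPre-B cells, 5 higher and 1 lower in sPre-B cells, and changed no call of the 9 genes. A replicate block within each genotype, for pairs of stages, called 3 of the 9 genes lower between stages in Ctrl cells, against 0, and 3 higher, against 2, and gave 1360 genes higher and 782 lower for the interaction.

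Levels per kilobase could not be recomputed with a length column of the count table, which has none, and this alternative was not run. The length of the principal transcript was chosen in its place after seeing the data and moved 27 of 28 levels by more than their SD.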
